A study of Mus musculus with 300 samples.

Results

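The 52 transcripts described here had a mean level at least 1 log2 unit higher in F2 males than in F2 females, out of 34406 transcripts measured in mouse liver. They were chosen on that difference of means, after 5 named identifiers had been set aside, 2 of which also reached the limit. The F2 sex difference of these transcripts is therefore given as a description and without a test, whereas the parental strains, the F1 hybrids, the spread within each sex and the covariation among F2 males had no part in the choice. Total RNA of 300 single livers had been hybridised to whole-transcript Affymetrix arrays, 1 array for each animal. F2 comprised 282 animals from an intercross of F1 animals, with 1 male (2308) and 4 females that stood apart in their sex-dependent transcripts, and 146 other males and 131 other females, and each of the F1, MRL/MpJ (MRL) and SM/J (SM) groups comprised 3 males and 3 females. The F1 came from MRL dams and SM sires, so that every F2 animal carried its own mixture of both genomes. All mice were 13 weeks old, ate chow, were housed alone and fasted before collection, and none received a treatment. Levels are log2 values, so that a difference of 1 unit is a 2-fold difference, and the median level over all transcripts and arrays was 6.76.

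The mouse liver is among the organs with the most sex-dependent expression. Pituitary growth hormone is released in separated pulses in male rodents and more continuously in females, and the hepatocyte reads this pattern through the growth hormone receptor, JAK2 and STAT5b, with HNF4A, BCL6 and CUX2 among the other factors involved. Known male-high liver genes in mice encode urinary pheromone carriers, cytochrome P450 enzymes, steroid dehydrogenases and organic anion transporters, and genes of the Y chromosome are also read in males and not in females. The transcripts here carry Ensembl identifiers, none of which was paired with a gene symbol (0 of 34406), so none is assigned to these classes, no marker of liver or of any other cell type was checked, and no sequence is given. In bulk liver, fewer cells of a type and less RNA per cell cannot be told apart.

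Several libraries stood apart from their labels on the sex-separated transcripts. The library labelled F1 male 1146 lay nearer to the F1 female mean than to the mean of the other two F1 males for 52 of the 52 transcripts, and results that use F1 males are given with and without it. It also entered the common error of all comparisons among the 18 parental and F1 animals, where the median standard error of a sex difference was 0.256 with it and 0.127 without it. A sex score was built from 51 transcripts that separated the sexes in the parental animals (30 male-high and 21 female-high, of which 23 were not among the 52). Each transcript was centred on the midpoint of its parental male and female means and divided by their distance from it. Female-high ones were reversed in sign, and the scaled values were averaged. The score is thus not in log2 units, and it was 0.96 to 1.04 in MRL males and -1.02 to -0.93 in MRL females. On this score 5 F2 libraries lay more than 0.5 from the median of their sex, namely male 2308 and females 2116, 2293, 2295 and 2122. These 5 were kept in the F2 values unless stated otherwise. Arrays were run in 14 labelled batches of 2 to 25 arrays, and their medians ranged from 6.71 to 6.83.

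In F2 the male excess ranged from 1.01 to 3.99 log2 units with a median of 1.47, or 2.01-fold to 15.9-fold with a median of 2.77-fold. The median difference over all 34406 transcripts was 0.0090. The excess was at least 2 log2 units for 16 of the 52 transcripts and at least 3 for 5. Mean levels ran from 7.04 to 12.91 in F2 males (median 9.92) and from 5.57 to 11.89 in F2 females (median 7.79). Thus 9 transcripts had a female mean below 6, under the median of all transcripts, whereas 15 averaged at least 10 in females and were abundant in both sexes. Both sexes were present in 13 batches, and all 52 transcripts were higher in males within each of the 13, with a smallest within-batch difference of 0.517. The same F2 animals chose the transcripts, so this is a description, and no such count was made over all transcripts.

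**Figure D1:**
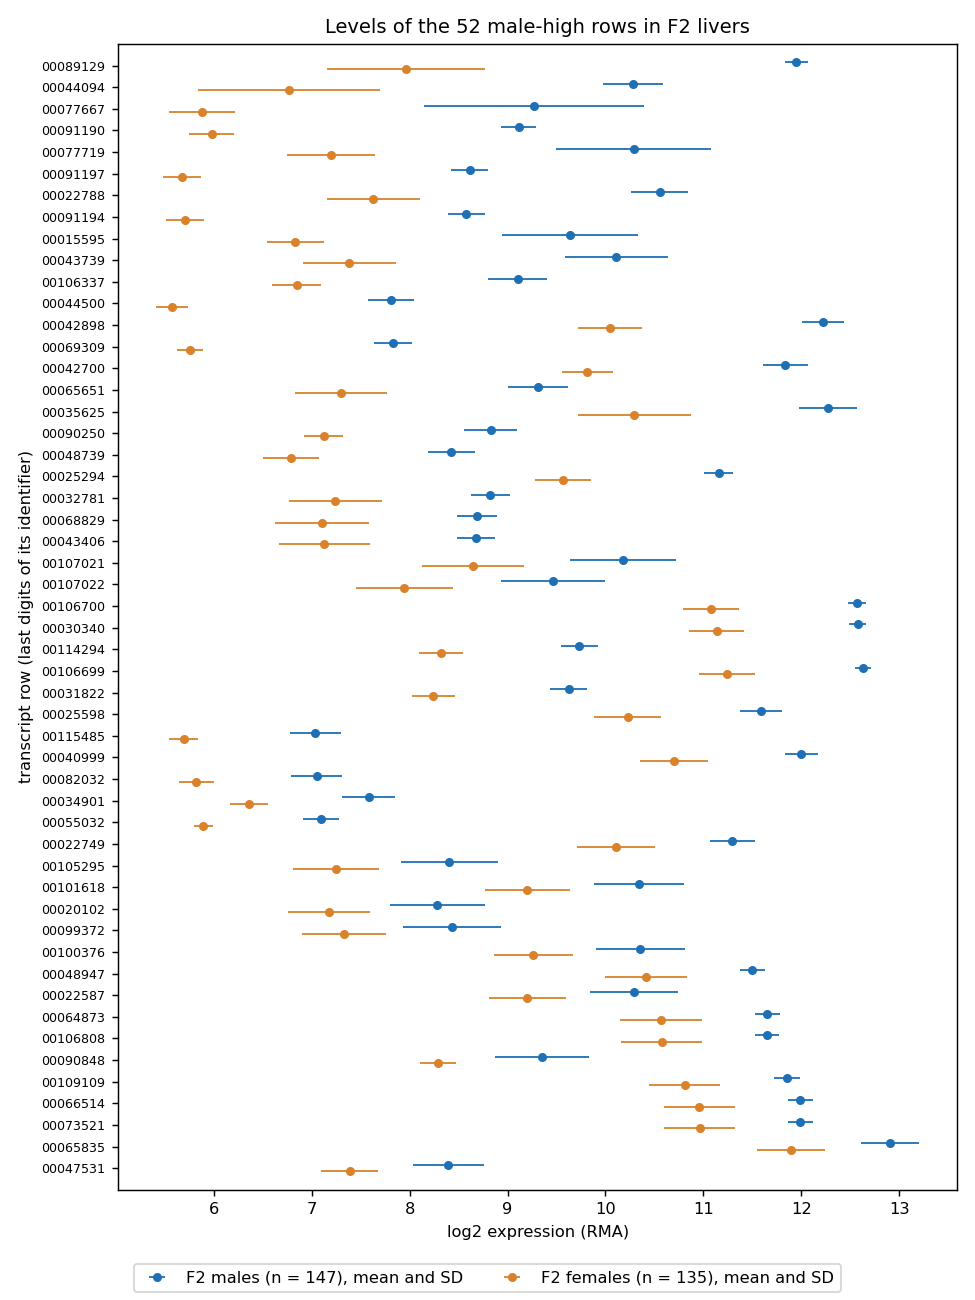
Mean level and SD of each of the 52 male-high transcripts in all F2 males (blue) and all F2 females (orange), on the log2 expression scale, ordered by the difference between the sexes. Male means run from 7.04 to 12.91 and female means from 5.57 to 11.89, and the length of the SD bars differs between the sexes for many transcripts.

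The greatest F2 difference was that of ENSMUST00000089129, 3.99 log2 units. Its level in F2 males had a minimum of 11.47, a median of 11.96 and a maximum of 12.21, against 6.62, 7.87 and 11.55 in F2 females. Males were thus held in a range of less than 1 unit, whereas females were spread over nearly 5, with library 2116 at the top. The only overlap was that of female library 2116 with male library 2308. ENSMUST00000044094 differed by 3.51, with 9.26, 10.34 and 10.86 as lowest, median and highest level in F2 males and 5.54, 6.41 and 9.12 in F2 females. The sexes did not overlap for this transcript, although its female levels were again the more scattered. Its highest female level was again that of library 2116. ENSMUST00000077667 differed by 3.39 and showed the reverse arrangement, with 6.54, 9.25 and 11.65 in F2 males against 5.49, 5.82 and 9.18 in F2 females. Its female levels were mostly low, with library 2116 at the maximum, and its male levels were spread over more than 5 units.

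ENSMUST00000091190 differed by 3.14 and was narrow in both sexes, with 8.41, 9.15 and 9.62 in F2 males and 5.70, 5.96 and 8.38 in F2 females. The highest female level belonged to library 2116, and without the 5 libraries that stood apart the highest female level was 6.32. ENSMUST00000077719 differed by 3.09, with 7.95, 10.54 and 11.46 in F2 males against 6.33, 7.17 and 10.31 in F2 females. It was broad in males like ENSMUST00000077667, and its highest female level was also that of library 2116. Over all 52 transcripts, 9 had no overlap between F2 males and F2 females, and 23 had none once the 5 libraries were left out. Both counts rest on the F2 values that chose the transcripts, and no such count was made over all transcripts. The sex score that picked the 5 libraries also held some of the 52. Just inside the limit stood ENSMUST00000065835 with a difference of 1.02 and ENSMUST00000047531 with 1.01, and just outside it ENSMUST00000043915 with 0.999 and ENSMUST00000114466 with 0.983.

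The first comparison asked whether the male excess seen in F2 was present in animals of the inbred parental strains. In MRL all 52 transcripts were higher in males with an adjusted p under 0.05 (limma over all transcripts, Benjamini-Hochberg, 3 males against 3 females), where 10.6% of all transcripts were called higher and 17.1% were called in either direction. The MRL differences ran from 0.807 to 4.25 log2 units with a median of 1.55, beside a median of -0.017 over all transcripts. In SM 50 of the 52 were called higher in males, where 1.24% of all transcripts were called higher and 2.31% in either direction. The SM differences ran from 0.908 to 3.95 with a median of 1.70, beside 0.013 over all transcripts. The SM transcripts that missed the threshold, ENSMUST00000100376 (adjusted p 0.0501) and ENSMUST00000101618 (adjusted p 0.0649), passed it without library 1146, when 52 were called, 1.62% of all transcripts were called higher and 3.38% in either direction. In each strain the 3 males lay above the 3 females for 52 of 52 transcripts, a count that was not made over all transcripts.

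In MRL the greatest differences were those of ENSMUST00000077667 (4.25 ± 0.66, SE, limma adjusted p 0.00115), ENSMUST00000077719 (3.82 ± 0.48, adjusted p 0.00036) and ENSMUST00000089129 (3.62 ± 0.58, adjusted p 0.00128). ENSMUST00000089129 had 12.05, 12.04 and 12.03 in MRL males, against 8.49, 8.16 and 8.61 in MRL females. In SM the order was different, with ENSMUST00000044094 (3.95 ± 0.46, limma adjusted p 0.000196), ENSMUST00000015595 (3.66 ± 0.43, adjusted p 0.000196) and ENSMUST00000043739 (3.59 ± 0.57, adjusted p 0.00221) in front. ENSMUST00000015595 had 10.62, 10.48 and 10.36 in SM males, against 6.67, 6.83 and 6.99 in SM females. ENSMUST00000043739 had 10.48, 10.19 and 11.08 in SM males and 6.15, 7.30 and 7.55 in SM females. For both transcripts every male stood more than 2 units above every female.

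No batch held MRL animals of both sexes, and with batch as a fixed term in the fit of the 18 animals 0 of the 52 MRL differences were called, whereas 40 of the SM differences were. Of all 34406 transcripts, that fit called 15 in MRL (2 higher in males) and 931 in SM (246 higher in males). All 52 MRL estimates stayed positive in it, with a median of 1.21. SM male 6 and SM female 2 shared batch 7. Within this pair 52 of 52 transcripts were higher in the male, by 0.755 to 3.92 log2 units with a median of 1.62. How many of all transcripts were higher in this male was not counted.

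**Figure D2:**
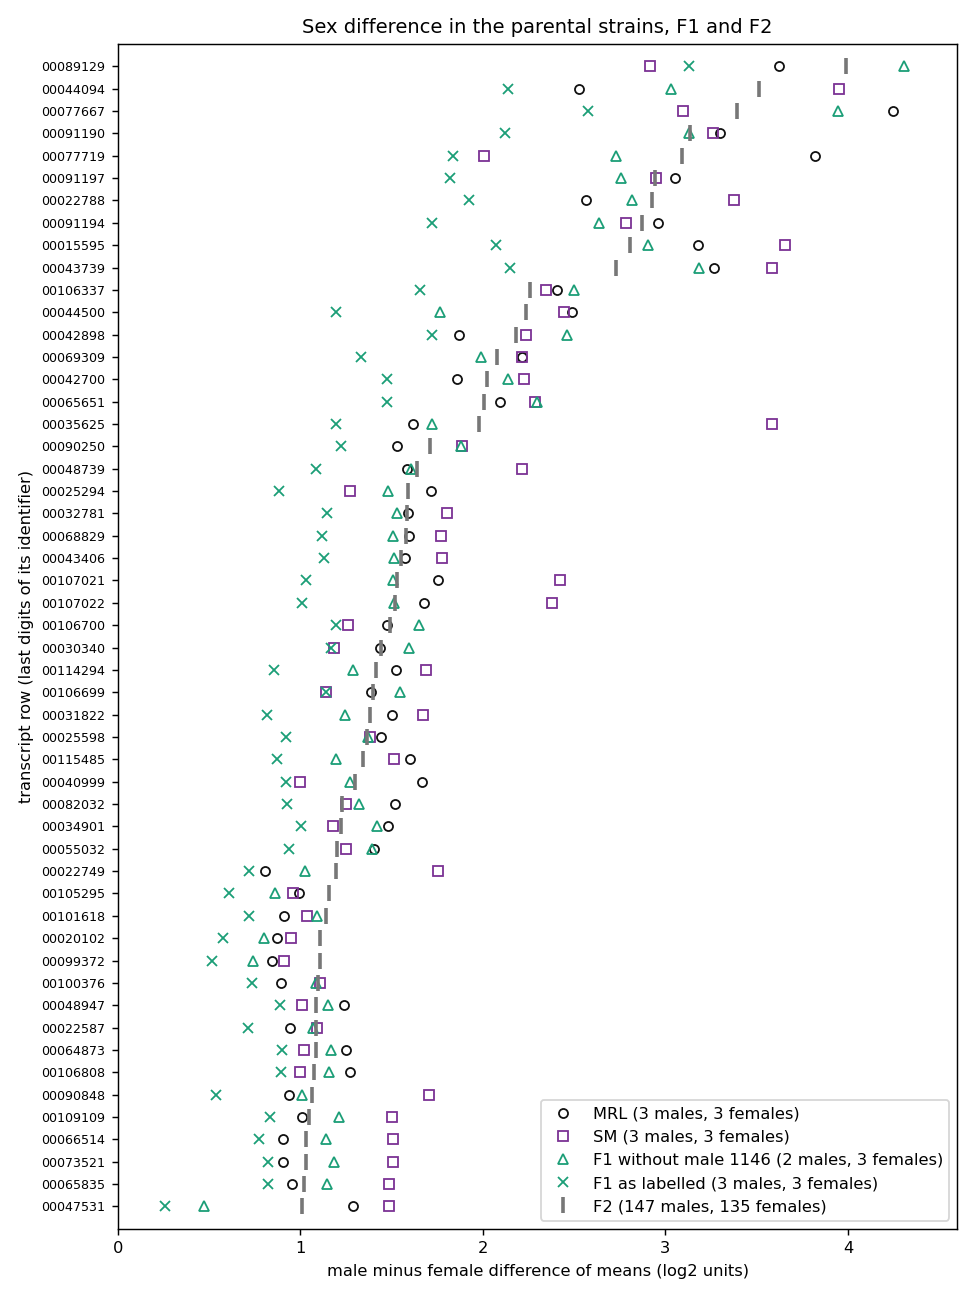
Male minus female difference of mean log2 levels for each of the 52 transcripts in MRL (circles), SM (squares), F1 without library 1146 (triangles), F1 with all labelled animals (crosses) and F2 (grey bars, which chose the transcripts). All points lie above 0, the crosses lie left of the triangles, and the MRL and SM points part most for transcripts such as ENSMUST00000035625 (1.62 in MRL and 3.58 in SM).

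In F1 the count depended on single animals, library 1146 among them. Apart from library 1146, leaving out 1 animal at a time gave 0 to 27 calls among the 52. The same fits called 11 to 996 of all transcripts. With the labels as given, 24 of the 52 transcripts were called higher in males (3 males against 3 females, limma adjusted p under 0.05), where 0.48% of all transcripts were called higher and 1.58% in either direction. The median difference was then 1.02, with a range from 0.255 to 3.13. As in MRL, no batch held F1 animals of both sexes. With batch as a fixed term 0 of the 52 F1 differences were called, and 0 of all 34406 transcripts. Without the library labelled F1 male 1146, 51 of the 52 were called, where 2.61% of all transcripts were called higher and 6.91% in either direction, and the median difference was 1.51 with a range from 0.472 to 4.31. Counted among the 52 only, the groups did not overlap for 20 transcripts with library 1146 and for 51 without it. The exception in both respects was ENSMUST00000047531, with 8.29, 7.48 and 7.24 in F1 males, the last from library 1146, against 7.51, 7.37 and 7.36 in F1 females. Male 1152 was at the female level for this transcript, the single one of the 52 for which it lay nearer to the F2 female median than to the F2 male median.

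ENSMUST00000089129 had 11.72 and 11.87 in F1 males 1151 and 1152 and 8.26 in library 1146, against 7.30, 7.36 and 7.80 in F1 females, a difference of 3.13 ± 0.58 (SE, limma adjusted p 0.0221) that became 4.31 ± 0.16 without library 1146 (adjusted p 3.61e-12). ENSMUST00000044094 had 9.99 and 10.52 in those males and 7.58 in library 1146, against 7.75, 6.70 and 7.24 in F1 females, a difference of 2.14 ± 0.46 (limma adjusted p 0.0338) and of 3.03 ± 0.21 without it. For ENSMUST00000091190 the values were 9.14 and 8.91 in those males and 5.99 in library 1146, against 5.86, 5.80 and 6.02 in F1 females. In each of these transcripts library 1146 fell among or just above the females, and both other males stood at the level of the F2 males. Transcripts whose F1 call needed the removal of library 1146 included ENSMUST00000077667 (2.58 ± 0.66, limma adjusted p 0.0556, and 3.94 ± 0.14 without it) and ENSMUST00000043739 (2.15 ± 0.57, adjusted p 0.0587, and 3.18 ± 0.32 without it).

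The MRL minus SM difference in males ran from -1.38 to 2.09 log2 units with a median of -0.00098, and 26 of 52 transcripts were higher in MRL males. The difference was called for 7 transcripts (limma adjusted p under 0.05), 1 higher and 6 lower in MRL, where 6.47% of all transcripts were called, 4.69% higher and 1.78% lower. Without library 1146 the calls numbered 12, 4 higher and 8 lower, where 7.03% of all transcripts were called, 5.16% higher and 1.87% lower. Most of the 7 fell into near-identical groups, described below, so that they stand for 4 distinct profiles.

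ENSMUST00000077719 was the transcript called higher in MRL males, with levels of 10.87, 11.17 and 10.94 in MRL males and of 8.91, 9.14 and 8.66 in SM males (difference 2.09 ± 0.48, SE, limma adjusted p 0.0117). In females it had 7.09, 7.17 and 7.26 in MRL and 6.22, 7.61 and 6.87 in SM, so that the strains were separate in males and overlapped in females. ENSMUST00000077667 had 10.34, 10.37 and 10.25 in MRL males compared with 8.92, 8.65 and 8.85 in SM males, and 6.44, 5.80 and 5.98 in MRL females against 5.68, 5.61 and 5.84 in SM females. The male groups were again far apart, but the difference of 1.51 ± 0.66 missed the threshold with library 1146 (limma adjusted p 0.198) and passed it without (1.51 ± 0.13, adjusted p 1.05e-06). Also called without library 1146 were ENSMUST00000044094 (0.76 ± 0.19, limma adjusted p 0.0169) and ENSMUST00000034901 (0.37 ± 0.099, adjusted p 0.029), both higher in MRL males.

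Among the transcripts lower in MRL males, ENSMUST00000107021 had 9.36, 9.47 and 9.55 in MRL males and 11.08, 10.76 and 10.68 in SM males (difference -1.38 ± 0.32, limma adjusted p 0.0126). In females it had 7.55, 7.87 and 7.71 in MRL against 7.74, 8.34 and 9.18 in SM, where the ranges overlapped. Its near-identical partner ENSMUST00000107022 differed by -1.36 ± 0.33 (limma adjusted p 0.0163). ENSMUST00000065835, the most abundant of the 52 in F2 males, had 12.35, 12.52 and 12.50 in MRL males and 13.20, 13.30 and 13.35 in SM males (difference -0.83 ± 0.14 without library 1146). ENSMUST00000020102 stood lower in MRL in both sexes, with 7.69, 7.60 and 7.53 in MRL males compared with 8.58, 8.78 and 8.56 in SM males, and 6.78, 6.67 and 6.74 in MRL females against 7.45, 7.81 and 7.82 in SM females. The near-identical ENSMUST00000099372 differed by -1.04 ± 0.14 in males (limma adjusted p 0.000177) and by -0.98 ± 0.14 in females (adjusted p 0.000387). Without library 1146, ENSMUST00000090848 (-0.84 ± 0.18, limma adjusted p 0.00711) and ENSMUST00000015595 (-0.77 ± 0.16, adjusted p 0.00671) were also called lower in MRL males.

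**Figure D3:**
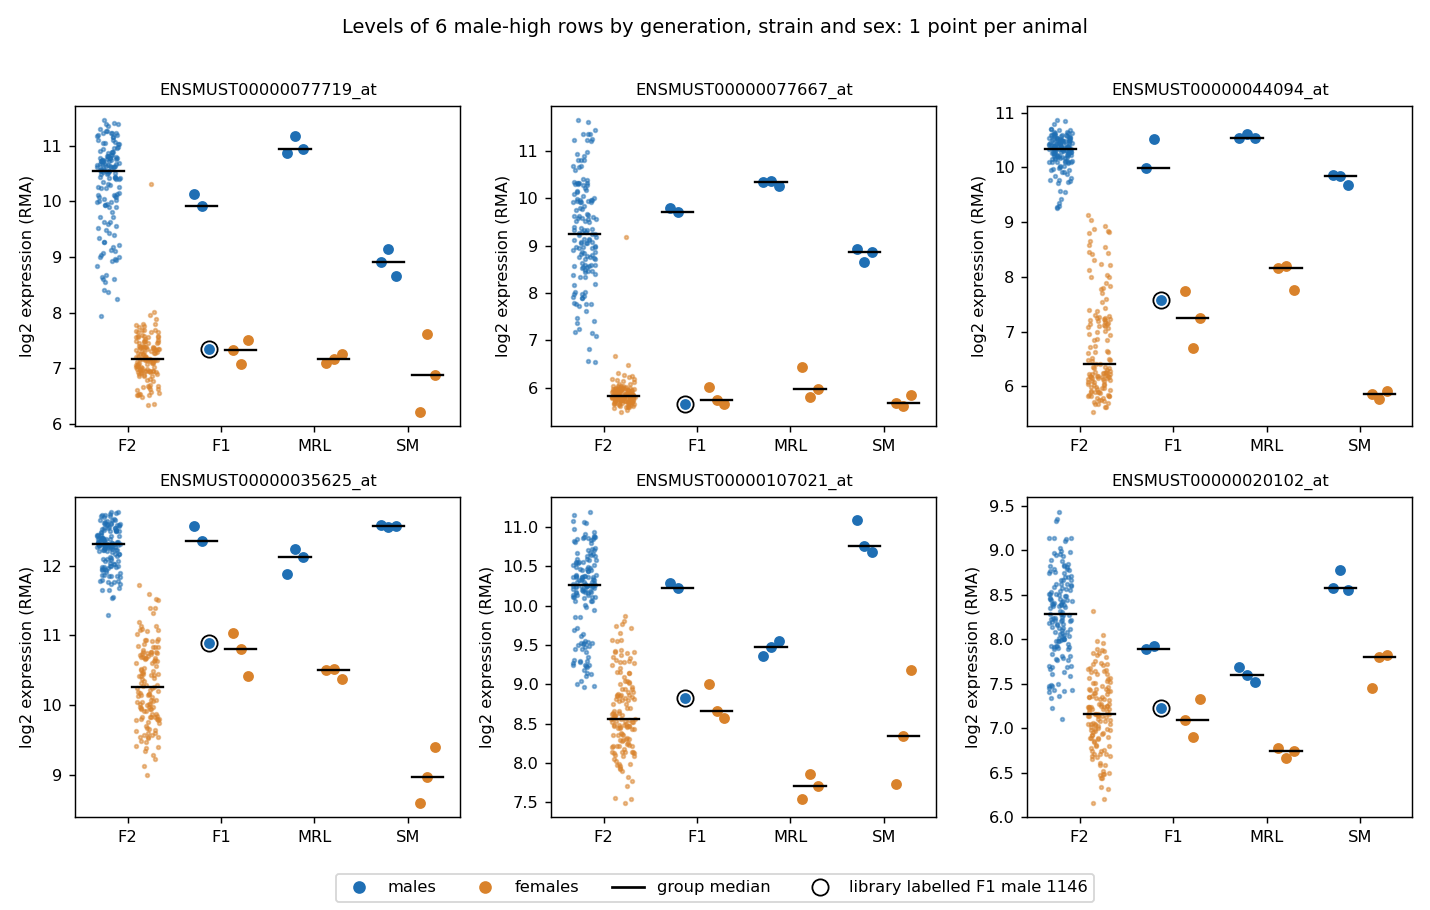
Log2 level of 6 male-high transcripts in every animal of F2, F1, MRL and SM, males in blue left of females in orange, with the group median as a line (F1 medians include library 1146, ringed). ENSMUST00000077719 and ENSMUST00000077667 part the strains in males, ENSMUST00000044094 and ENSMUST00000035625 part them in females, and ENSMUST00000020102 in both sexes.

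In females the MRL minus SM difference was called for 6 transcripts (limma adjusted p under 0.05), 3 higher and 3 lower in MRL, where 8.02% of all transcripts were called, 3.37% higher and 4.66% lower. Without library 1146 it was called for 22, 10 higher and 12 lower, where 8.64% of all transcripts were called, 3.63% higher and 5.01% lower. The median female difference was 0.039, beside 0.029 over all transcripts. ENSMUST00000044094 had 8.16, 8.19 and 7.75 in MRL females against 5.87, 5.77 and 5.91 in SM females (difference 2.19 ± 0.46, limma adjusted p 0.00632), and 10.54, 10.60 and 10.54 in MRL males compared with 9.86, 9.85 and 9.69 in SM males. The strains were thus further apart in females than in males. ENSMUST00000035625 had 10.50, 10.52 and 10.38 in MRL females against 8.59, 8.97 and 9.40 in SM females (difference 1.48 ± 0.30, limma adjusted p 0.00448). In males it had 11.88, 12.25 and 12.13 in MRL and 12.58, 12.56 and 12.57 in SM, an order opposite to that of the females. ENSMUST00000022749 had 10.61, 10.55 and 10.46 in MRL females and 8.92, 9.70 and 9.95 in SM females (difference 1.02 ± 0.21, limma adjusted p 0.00623), whereas its males lay within 11.25 to 11.40 in both strains. The 3 called lower in MRL females were the near-identical ENSMUST00000105295 (-0.99 ± 0.18, limma adjusted p 0.0019), ENSMUST00000099372 and ENSMUST00000020102.

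Whether the size of the sex difference depended on strain was tested as the sex difference in MRL minus that in SM. With all 18 animals 0 of the 52 passed the threshold (limma), 5 had an unadjusted p under 0.05, and 0.221% of all transcripts were called. Without library 1146, 6 of the 52 passed, 2 with a larger and 4 with a smaller sex difference in MRL. In that fit 0.584% of all transcripts were called, 0.363% larger and 0.221% smaller. An unadjusted limma p under 0.05 was then found for 21 of the 52, a count not made over all transcripts. The sex difference was smaller in MRL for ENSMUST00000035625 (1.62 in MRL and 3.58 in SM, difference -1.96 ± 0.23, limma adjusted p 0.000397), ENSMUST00000044094 (2.53 and 3.95, difference -1.43 ± 0.26, adjusted p 0.0196), ENSMUST00000022788 (2.56 and 3.37, difference -0.81 ± 0.13, adjusted p 0.00652) and ENSMUST00000048739 (1.59 and 2.21, difference -0.63 ± 0.12, adjusted p 0.027). It was larger in MRL for ENSMUST00000077719 (3.82 and 2.01, difference 1.81 ± 0.32, limma adjusted p 0.0147) and ENSMUST00000077667 (4.25 and 3.10, difference 1.15 ± 0.18, adjusted p 0.0065). In the first 4 the strains parted chiefly at the low female level, and in the last 2 at the high male level. ENSMUST00000022788, for example, had 8.27, 8.07 and 7.95 in MRL females against 7.34, 7.58 and 7.62 in SM females, and 10.58, 10.69 and 10.71 in MRL males compared with 10.98, 10.83 and 10.86 in SM males. The estimates were the same with library 1146, and their standard errors were larger.

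F1 males were set against the mean of MRL males and SM males. With library 1146 the difference was negative for all 52 transcripts, with a median of -0.55, and 1 was called (ENSMUST00000047531, -0.96 ± 0.16, limma adjusted p 0.0465), where 0.0262% of all transcripts were called and 32 of the 52 had an unadjusted p under 0.05. Without it the median was -0.068, 20 of 52 differences were positive, 0 were called and 14 had an unadjusted p under 0.05, where 0.0145% of all transcripts were called. For 4 of the transcripts called between MRL and SM males, with or without library 1146, the levels of both other F1 males follow. ENSMUST00000077719 had 10.14 and 9.92, and ENSMUST00000077667 had 9.79 and 9.70. ENSMUST00000107021 had 10.29 and 10.22, and ENSMUST00000020102 had 7.90 and 7.93, in each case between the MRL and the SM males. For ENSMUST00000015595 both (9.65 and 9.78) lay inside the range of the MRL males. For ENSMUST00000090848 (9.71 and 9.08) 1 of them did, and for ENSMUST00000034901 (7.82 and 7.53) 1 lay inside the MRL range and 1 inside the SM range.

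F2 males were then placed against the parental male means for the transcripts with a strain difference, as counts without a test. ENSMUST00000077719 was nearer to the MRL mean in 108 and nearer to the SM mean in 39 of the F2 males, with 8 males below the range of the 6 parental males and 15 above it. ENSMUST00000077667 was nearer to MRL in 60 and to SM in 87, and 43 males were below and 22 above the parental range. Its F2 male SD was 1.12 log2 units, the largest of the 52, beside SDs of 0.060 in MRL males and 0.14 in SM males. ENSMUST00000107021 was nearer to MRL in 51 and to SM in 96, and ENSMUST00000020102 was nearer to MRL in 54 and to SM in 93. In F2 females ENSMUST00000044094 was nearer to the MRL female mean in 53 and to the SM female mean in 82, and ENSMUST00000035625 was nearer to MRL in 112 and to SM in 23. For ENSMUST00000035625, 49 F2 females exceeded all 6 parental females. ENSMUST00000089129 had means of 12.04 in MRL males and 11.99 in SM males, and 26 F2 males were below and 21 above the range of the parental males.

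The 5 F2 libraries that stood apart did so in different ways. On a scale where the F2 female median of a transcript is 0 and the F2 male median is 1, the median over the 52 transcripts was 0.705 in male 2308 and 0.647 in female 2116. Both belonged to batch 10, as did female 2295. Male 2308 and female 2116 had similar positions transcript by transcript, for example 0.767 and 0.759 for ENSMUST00000091190 and 0.440 and 0.469 for ENSMUST00000082032. Female 2295 had a median of 0.537, female 2122 of 0.284 and female 2293 of 0.235. The other F2 males had medians from 0.772 to 1.14 and the other F2 females from -0.264 to 0.299, so that 2122 and 2293 lay within the female range on these transcripts. Female 2295 was split across the 52, nearer to the male median for 28 and to the female median for 24. It stood at 1.01 for ENSMUST00000034901 and at 0.975 for ENSMUST00000082032, but at 0.027 for ENSMUST00000091190, -0.056 for ENSMUST00000091197 and -0.066 for ENSMUST00000091194. The sex score was also taken over its 23 transcripts outside the 52, where negative values lie on the female side. It was -0.575 in male 2308, -0.497 in female 2116 and 0.072 in female 2295. In females 2122 and 2293 it was -0.146 and -0.640. What set these libraries apart was not tested.

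Spread within a sex was compared between F2 males and F2 females as the absolute deviation from the median of the sex, after batch effects had been subtracted. It differed for 34 of the 52 transcripts (limma adjusted p under 0.05), larger in males for 13 and larger in females for 21, where 1.89% of all transcripts were called, 1.09% larger in males and 0.796% larger in females. Without the 5 libraries it differed for 35, larger in males for 15 and in females for 20, where 1.98% of all transcripts were called. Over all transcripts the median SD was 0.104 in F2 males and 0.099 in F2 females.

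Among the transcripts described here, the direction of the spread difference went with level. Of the 18 transcripts with an F2 male mean of at least 11, 15 were more spread in females and 0 in males. Of the 9 transcripts with an F2 female mean below 6, 7 were more spread in males and 0 in females. Neither count was made over all transcripts at these levels. Whether other transcripts at the same levels show the same pattern was therefore not tested. Values near the lower or upper end of an array's range are compressed, and the part of this compression in the spread was not tested.

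The transcripts more spread in males were led by ENSMUST00000077667, with an SD of 1.09 in F2 males and 0.382 in F2 females after batch subtraction (mean absolute deviation larger by 0.66 ± 0.061, limma adjusted p 6.55e-20). ENSMUST00000015595 had SDs of 0.661 in F2 males and 0.309 in F2 females (0.29 ± 0.040, limma adjusted p 1.01e-09), and ENSMUST00000077719 had 0.757 and 0.451 (0.27 ± 0.051, adjusted p 4.19e-05). ENSMUST00000090848, at 9.35 in F2 males and 8.29 in F2 females, had SDs of 0.470 and 0.185. All values of the series ran from 4.66 to 13.60, and the part of compression in the spread of this transcript was not tested.

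More spread in females were ENSMUST00000044094, with SDs of 0.318 in F2 males and 0.909 in F2 females (-0.49 ± 0.055, limma adjusted p 3.84e-14), and ENSMUST00000089129, with 0.168 and 0.780 (-0.48 ± 0.041, adjusted p 6.05e-22). ENSMUST00000048947 had 0.128 in F2 males and 0.406 in F2 females (-0.23 ± 0.021, limma adjusted p 2.43e-20) at levels of 11.50 and 10.41. The least variable of the 52 in F2 males were the near-identical ENSMUST00000106699, ENSMUST00000030340 and ENSMUST00000106700, whose SDs of 0.088, 0.091 and 0.098 were below the median SD of all transcripts. Their SDs in F2 females were 0.276, 0.271 and 0.278, and their male levels were from 12.57 to 12.63.

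**Figure D4:**
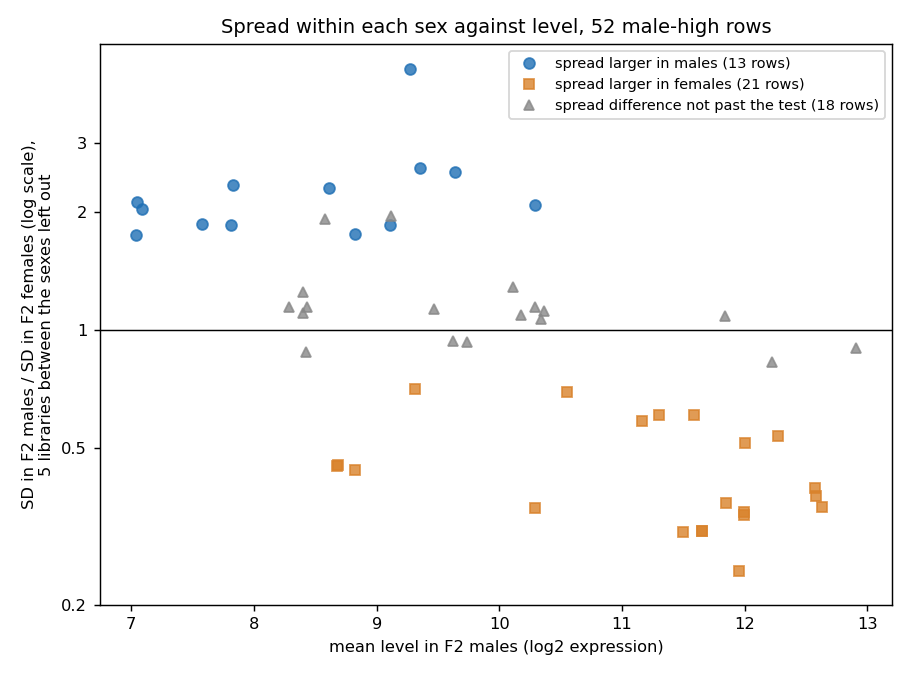
Ratio of the SD in F2 males to the SD in F2 females, on a log axis and without the 5 libraries that stood apart, against the mean level in F2 males, for the 52 transcripts; symbols show the test on all 282 F2 animals. The 21 transcripts more spread in females have ratios from 0.244 to 0.707, the 13 more spread in males have ratios from 1.75 to 4.62, and no transcript above a male level of 11 is more spread in males by the test.

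Covariation was measured as Spearman's rho between transcripts over the 146 F2 males and male 2308 after batch means had been subtracted. The 1326 pairs had a median rho of 0.206 in F2 males and 0.271 in F2 females, and 0.216 in females without the 4 female libraries that stood apart. Some transcripts were almost copies of each other. In 8 groups that together hold 22 of the 52 transcripts, rho was at least 0.9 in both sexes. Whether they belong to 1 gene or share probes was not checked. The 52 transcripts thus made 38 distinct profiles. Pairs from different profiles reached a rho of 0.5 in 96 cases.

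Average linkage with a limit of a mean rho of 0.5 gave 8 blocks of at least 3 transcripts, with 38 of the 52 inside a block. As the blocks were found on these values, their rho in males is a description. Blocks 7 and 8 consisted of 1 near-identical group each (ENSMUST00000105295, ENSMUST00000020102 and ENSMUST00000099372 in block 7, and ENSMUST00000109109, ENSMUST00000066514 and ENSMUST00000073521 in block 8). With 1 transcript kept from each near-identical group, 5 blocks with 21 transcripts remained.

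Block 1 was the largest, with 8 transcripts in 6 profiles. It held ENSMUST00000091190, ENSMUST00000091197, ENSMUST00000091194, ENSMUST00000044500, ENSMUST00000069309 and the near-identical ENSMUST00000032781, ENSMUST00000068829 and ENSMUST00000043406. Its median rho was 0.603 in F2 males and 0.112 in F2 females. The mean level of block 1 moved with the SD of the values on an array (rho 0.831 over F2 males), and when the slope on that SD was subtracted the median rho within the block was 0.279. For the other blocks the same rho with array SD lay between -0.045 and 0.355, and the subtraction left their median rho at 0.490 or above. Of its members, the first 5 had F2 female means from 5.57 to 5.98. In F2 females ENSMUST00000091197 with ENSMUST00000091194 (rho 0.957 in F2 males and 0.842 in F2 females) and ENSMUST00000044500 with ENSMUST00000069309 (0.882 in F2 males and 0.627 in F2 females) stayed close. ENSMUST00000091197 with ENSMUST00000069309 had 0.739 in F2 males and 0.166 in F2 females, and with ENSMUST00000043406 it had 0.604 in F2 males and -0.062 in F2 females. The same 5 transcripts stayed near the female median in females 2295, 2122 and 2293, with positions between -0.066 and 0.058.

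Block 2 held ENSMUST00000022788, ENSMUST00000035625, ENSMUST00000090848 and the near-identical ENSMUST00000048947, ENSMUST00000064873 and ENSMUST00000106808, with a median rho of 0.680 in F2 males and 0.428 in F2 females. The closest pair of different profiles was ENSMUST00000035625 with ENSMUST00000090848, at a rho of 0.757 in F2 males and 0.116 in F2 females. ENSMUST00000022788 with ENSMUST00000106808 had 0.691 in F2 males and 0.618 in F2 females. The mean rho of ENSMUST00000090848 to the rest of the block was 0.566 in F2 males and -0.056 in F2 females.

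Block 3 joined ENSMUST00000106337, ENSMUST00000090250, ENSMUST00000040999 and the near-identical ENSMUST00000101618, ENSMUST00000100376 and ENSMUST00000022587, with a median rho of 0.558 in F2 males and 0.364 in F2 females. ENSMUST00000106337 with ENSMUST00000090250 reached 0.929 in F2 males and 0.545 in F2 females. Block 4 joined ENSMUST00000065651 to the near-identical groups of ENSMUST00000106700 and of ENSMUST00000114294, with a median rho of 0.527 in F2 males and 0.481 in F2 females. It was nearly as close in females as in males.

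Block 5 held ENSMUST00000015595, ENSMUST00000042898 and ENSMUST00000042700, with a median rho of 0.611 in F2 males and 0.064 in F2 females. ENSMUST00000042898 and ENSMUST00000042700 stayed close in both sexes (0.857 in F2 males and 0.835 in F2 females), so that ENSMUST00000015595 was the one that moved with them in males (0.602 with ENSMUST00000042898) and hardly in females (0.054). Block 6 held ENSMUST00000107021, ENSMUST00000107022 and ENSMUST00000065835, with a median rho of 0.851 in F2 males and 0.889 in F2 females. All 3 were lower in MRL males than in SM males, although their levels in F2 males differed, at 10.18, 9.46 and 12.91.

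**Figure D5:**
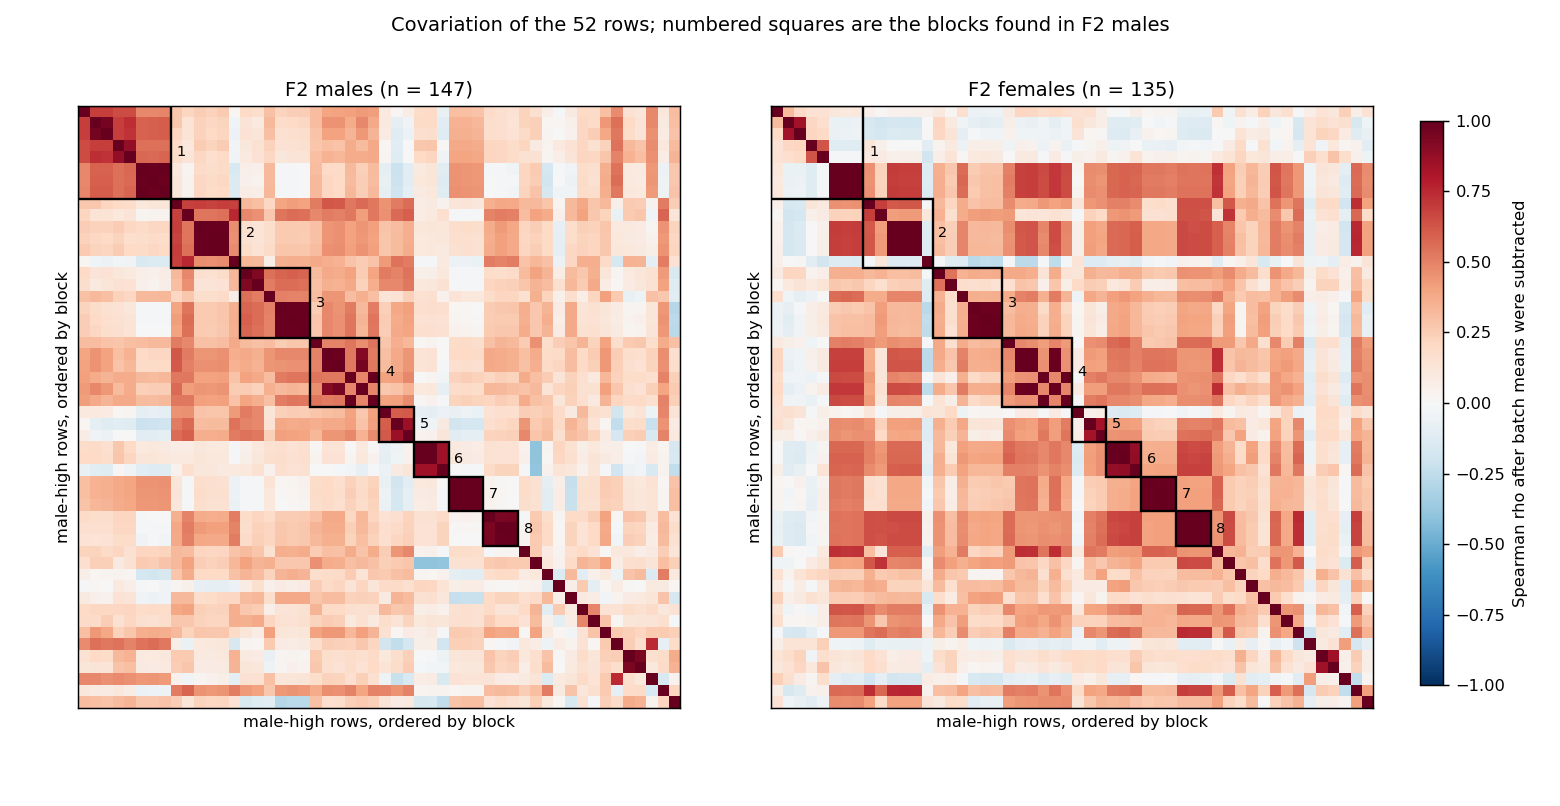
Spearman rho between the 52 transcripts after batch means were subtracted, in F2 males (left) and F2 females (right), in the same order; numbered squares are the 8 blocks found in F2 males and the transcripts outside a block come last. Blocks 1 and 5 are pale in females (median rho 0.112 and 0.064), block 6 is dark in both sexes (0.851 and 0.889), and females show broad covariation between several blocks.

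The closest pair of all was ENSMUST00000114294 with ENSMUST00000031822, with a Spearman rho of 0.997 and a Pearson r of 0.998 over the F2 males (permutation within batch, two-sided, p 1e-05 for both, the smallest that 100000 permutations give, adjusted p 4.7e-05 for rho and 4.3e-05 for r over 1326 pairs), and r stayed at 0.998 without the 2 males farthest from the median. The lowest rho, chosen as such among all pairs, was that of ENSMUST00000044094 with ENSMUST00000107021. It was -0.41 in F2 males, with a Pearson r of -0.35 (two-sided permutation p 1e-05 for rho and 3e-05 for r, adjusted p 4.7e-05 and 0.00011), and r was -0.35 without the 2 males farthest from the median and -0.36 without male 2308. In F2 females the same pair had a rho of 0.341 (permutation, adjusted p 0.00041). The difference between the sexes, -0.75, was larger than in permutations of the sex labels (two-sided p 5e-05, the smallest that 20000 permutations give, adjusted p 0.00045 over 1326 pairs). In males ENSMUST00000044094 was higher in MRL than in SM and ENSMUST00000107021 was lower, with means of 10.56 and 9.46 in MRL and of 9.80 and 10.84 in SM. The male difference of ENSMUST00000044094 missed the threshold with library 1146 (limma adjusted p 0.359) and passed it without (adjusted p 0.0169). In females ENSMUST00000044094 was also higher in MRL (7.75 to 8.19 against 5.77 to 5.91). The female ranges of ENSMUST00000107021 overlapped (7.55 to 7.87 in MRL and 7.74 to 9.18 in SM). Whether strain order bears on the rho was not tested. With the rest of block 6 ENSMUST00000044094 had a rho of -0.40 for each transcript in F2 males, and of 0.365 for ENSMUST00000107022 and 0.398 for ENSMUST00000065835 in F2 females. A negative rho in F2 males was found in 153 of the 1326 pairs. The rho differed between the sexes in 495 pairs (permutation of sex labels, adjusted p under 0.05), 193 of them with opposite signs.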

How the data were processed

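Liver RNA of 300 mice was measured on 1 array for each animal. The deposited values are log2 expression levels for each Ensembl transcript, which the authors computed by RMA (affy package, R 2.11), per the submitters' processing notes. RMA corrects background, quantile-normalizes probes and summarises them by median polish, which compresses differences at both ends of the range. Release, build and probe assignment are not stated in the sources used here. Levels lay between 4.66 and 13.60, the closest arrays correlated at 0.995, and the number of arrays limits the precision. The gene table used (GRCm38.p6) named 0 transcripts, so gene and marker lists were not applied. Identifiers are printed without the array's ending.

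Groups came from the labels, and each replicate is a separate animal. The 18 parental and F1 animals were fitted in limma 3.58.1 (R 4.3.3, 6 group means, all 34406 transcripts, Benjamini-Hochberg, threshold 0.05). F2 batch effects were subtracted before the tests of spread and before rho was computed (scipy 1.17.1, 100000 permutations within batch). The members, the lists and the 5 libraries were chosen with earlier results of these data known. Near-identical groups, the results without library 1146 and the transcripts discussed beside the blocks were chosen after their values were seen. The named transcripts are otherwise the 5 greatest F2 differences, those nearest the limit, up to 3 called in each direction of a comparison, the extremes of F2 male SD, 3 for each block, and the highest and lowest pair. The fits were tested on simulated data. Alternatives varied the filter, scaling, normalization, variance model, batch treatment, array spread, samples in the fit, animal number as a block, each animal left out, block limit and correlation. Genotypes were not used here.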

Additional observations from a re-analysis of the deposited data

Results flagged for a closer look

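For 6 of the 52 transcripts the sex difference was not the same in MRL and SM once the library labelled F1 male 1146 was left out (limma adjusted p under 0.05 for MRL minus SM), although none of the 6 passed with it. The sex difference was larger in MRL by 1.81 log2 units for ENSMUST00000077719 and by 1.15 for ENSMUST00000077667. MRL minus SM was -1.96 for ENSMUST00000035625, -1.43 for ENSMUST00000044094, -0.81 for ENSMUST00000022788 and -0.63 for ENSMUST00000048739, so that their sex difference was smaller in MRL. The rho of ENSMUST00000044094 with ENSMUST00000107021 differed between F2 males and F2 females by -0.75 (permutation of sex labels, p 5e-05, adjusted p 0.00045). This pair was picked for its lowest rho in F2 males. By the same test 495 of the 1326 pairs differed between the sexes (adjusted p under 0.05), 193 of them with opposite signs. The parental and F1 groups of 3 and the F2 groups were outside the group sizes for which single outlying animals were looked for.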

How the results depend on the processing

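Counts below are of the 52 transcripts with a limma adjusted p under 0.05, and the cause of a change was not tested. With batch as a fixed term the sex difference was called for 0 in MRL and 0 in F1. The female strain difference was called for 3 and F1 males against parental males for 0. Over all 34406 transcripts that fit called 15, 0, 980 and 8, in the same order. The interaction estimate of ENSMUST00000077667 turned to -0.049 in it, and batch 11 held library 1146 and MRL female 1. The F1 sex difference was called for 15 under quantile normalization, 9 with the trend and robust options and 0 with only the compared groups. Over all transcripts these settings called 200, 398 and 6. The strain difference in males was called for 3 with trend and robust options, 16 with only the compared groups and 13 in the males of the shared batches. That in females was called for 17 with only the compared groups, which gave 6 for the interaction. The counts of all transcripts were 2082, 2180 and 1629 in males, in the same order. With only the compared groups they were 2766 in females and 266 for the interaction. The 1 call of F1 males against parental males was 0 under the filter on low values, median centring, the trend and robust options, subtraction of F2 batch effects, only the compared groups and subtraction of array spread. These settings called 3, 4, 5, 5, 4 and 4 of all transcripts, in the same order, the first of 17203 tested. Leaving out 1 animal at a time gave 45 to 52 calls for the sex difference in MRL, 45 to 52 in SM and 0 to 51 in F1 (0 to 27 apart from library 1146). It gave 4 (without MRL male 7) to 12 (without library 1146) for the strain difference in males, 6 to 22 for that in females, 0 to 6 for the interaction, and 0 to 5 for F1 males against parental males (5 without F1 male 1151). Among all transcripts the sex difference was then called for 2290 to 7267 in MRL, 370 to 1162 in SM and 11 to 2376 in F1. The strain difference was called for 1233 to 2681 in males and 1361 to 3406 in females. For the interaction this was 28 to 701, and for F1 males against parental males 2 to 50. The F1 sex difference was called for 0 without male 1151, male 1152 or female 1149, 2 without female 1145 and 6 without female 1150. These fits called 17, 11, 40, 44 and 167 of all transcripts, in the same order. With the animal number as a replicate block, the strain difference was called for 17 in males and 25 in females and the interaction for 7. That fit called 2457, 3069 and 265 of all transcripts, in the same order. Deviations of same-numbered MRL and SM animals from their group means had r from -0.085 to 0.219. Those of differently numbered animals had r from -0.284 to 0.153. With 3 animals in each group these values cannot decide whether the numbers pair animals. With 1 transcript from each near-identical group the blocks held 21 transcripts in 5 blocks. A limit of 0.4 gave 7 blocks with 40 transcripts (12 in the largest), a limit of 0.6 gave 9 with 30 (5 in the largest), subtraction of array spread gave 9 with 32 (6), Pearson r gave 8 with 40 (10), no batch subtraction 9 with 38 (8) and the removal of male 2308 9 with 39 (8). Of 842 single-transcript values over 35 named results, 742 kept direction and side of the threshold, 69 lost the call, 30 gained it and 1 turned.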
